A study of Homo sapiens with 12 samples.

Results

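The mitotic genes examined are 34 genes of cell division, followed by RNA sequencing in 3 related human leukemia lines. TOP2A normally moves with them through the cell cycle, and the question was whether its lower level in the drug-resistant line was shared by them. The genes were taken by symbol from a table of 58395 genes. All 34 were found, and all 34 were among the 18286 genes with enough reads to test. They encode cyclins and Cdk1, mitotic kinases and spindle assembly factors, spindle checkpoint proteins, kinetochore proteins, spindle motors, regulators of anaphase, cytokinesis proteins and the Ki-67 antigen. TOP2A itself is not one of the 34.

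Each line was represented by 4 libraries. The line K/VP.5/edit-3 (edit-3 for short) is 1 clone of K/VP.5, picked after Cas9, a guide RNA and a repair template had changed bases at the 5′ splice site where exon 19 of TOP2A meets intron 19. K/VP.5 is itself a clonal line, an etoposide-resistant descendant of K562. K562, with no edit, is an established human line derived from a chronic myeloid leukemia in its blast phase. Per the labels, 0.5 µM etoposide was given to the cultures every other week, in a sentence that covers all 3 lines, so whether K562 received it is unclear. Whether the 4 libraries per line are separate cultures is not in the labels, so each p-value measures the spread between libraries alone, and that spread may be technical. A free-text label calls all 12 libraries parental; the source names contradict it and were used.

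Libraries held 25.3 M to 37.1 M reads, 95.2% to 96.2% of them in protein-coding genes, and mitochondrial genes took 0.712% to 1.22%. The unit of level is CPM, a read count divided by the size of its library. All 9 markers of K562 cells had reads in every line, with a summed level of 2460 to 3700 CPM in edit-3, 2250 to 3010 CPM in K/VP.5 and 2510 to 4050 CPM in K562, most of it from the transferrin receptor gene TFRC. Of 11 markers of other cell types, 10 had reads in edit-3, 9 in K/VP.5 and 10 in K562, and the B cell gene MS4A1 was at 0 in all libraries. Their summed level was 3040 to 5250 CPM in edit-3, 1180 to 1790 CPM in K/VP.5 and 773 to 1660 CPM in K562. The keratin genes KRT8 and KRT18 and the adhesion gene EPCAM had reads in all 3 lines. The collagen gene COL1A2 stood at 1670 to 2960 CPM in edit-3, 197 to 266 CPM in K/VP.5 and 5.01 to 8.53 CPM in K562. The part of these markers in the results was not tested.

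Mitotic genes are kept off early in the cell cycle and are switched on together before division. The DREAM complex represses many of them at a short promoter element, the CHR. Its MuvB core later joins B-MYB and FOXM1 to activate them, often with NF-Y bound at CCAAT boxes. TOP2A is counted in this programme; its product, topoisomerase IIα, untangles sister chromosomes and is the main target of etoposide. In bulk RNA, fewer cells in G2 and mitosis and less RNA in each such cell cannot be told apart.

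The promoters of 5 genes are shown for their programme elements. TOP2A is the gene in question, CENPE and KIF11 had the lowest fold changes of the mitotic genes in K/VP.5 versus K562, HMMR had the highest of those that passed the test, and CCNB2 is a cyclin gene that did not pass it. Each is the 110 bases before the RefSeq gene start, on the GRCh38.p14 build and written 5′ to 3′ on the strand of the gene. Capitals mark the CCAAT box and CHR-type letters on either strand, and neighbouring matches can share letters. The CHR-type motifs searched were TTTGAA, then TTCGAA and also TTTAAA.
TOP2A: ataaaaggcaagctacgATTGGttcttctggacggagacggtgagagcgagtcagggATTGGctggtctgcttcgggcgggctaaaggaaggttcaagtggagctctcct
CENPE: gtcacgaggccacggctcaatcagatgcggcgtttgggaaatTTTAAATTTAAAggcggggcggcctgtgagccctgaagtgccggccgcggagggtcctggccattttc
KIF11: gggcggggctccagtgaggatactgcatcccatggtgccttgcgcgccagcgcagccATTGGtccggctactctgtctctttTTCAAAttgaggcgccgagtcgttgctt
HMMR: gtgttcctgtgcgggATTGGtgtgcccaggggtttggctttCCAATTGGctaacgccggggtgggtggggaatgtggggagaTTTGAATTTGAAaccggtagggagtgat
CCNB2: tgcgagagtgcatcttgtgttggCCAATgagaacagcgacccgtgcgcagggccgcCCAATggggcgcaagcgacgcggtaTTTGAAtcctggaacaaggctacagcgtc

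The TOP2A stretch lies at chr17:40417897-40418006 on the minus strand. It held 2 CCAAT boxes and 0 matches to the 3 CHR-type motifs. The 300-base RefSeq window around it held 4 CCAAT boxes and 2 TTTGAA matches, both farther upstream than the stretch shown; TTTGAA was in 15.2% of all RefSeq windows of that length and in 21 of the 29 mitotic genes with a window (72.4%). CENPE (chr4:103198344-103198453 on the minus strand) had 2 CHR-type matches and 0 CCAAT boxes. KIF11 (chr10:92593020-92593129 on the plus strand) had 1 of each. HMMR (chr5:163460522-163460631 on the plus strand) had 2 CHR-type matches and 3 CCAAT boxes, 2 of which overlap. CCNB2 (chr15:59105036-59105145 on the plus strand) had 1 CHR-type match and 2 CCAAT boxes. Among the mitotic genes shown, CHR-type letters stood in CENPE and KIF11, which fell, in HMMR, which rose, and in CCNB2, which did not pass. HMMR was the only 1 of the 4 higher genes with such letters in its 110 bases.

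RefSeq windows were matched by symbol for 29 of the 34 genes, and a gene with several windows counted if any held the motif. A CHR-type motif stood in the 110 bases of 20 of 29 genes (69%), against 9.49% of all 35116 RefSeq windows of that length. Among these motifs, TTTGAA was in 14 genes (48.3%, against 5.14% of windows), TTTAAA in 8 (27.6%, against 4.48%) and TTCGAA in 0 (against 0.39%). A CCAAT box was in 20 genes (69%, against 19.3% of windows), and both kinds of motif were in 16 (55.2%, against 1.96%). These matches describe letters and are not shown to be sites of binding. By result in K/VP.5 versus K562, CHR-type letters were in the 110 bases of 1 of 4 higher genes with a window. They were in 5 of 5 lower genes and 14 of 20 genes that did not pass, and no test was made of these counts. The counts depend on the stretch read: in the 300-base windows 27 of 29 genes (93.1%, against 25.1% of windows) had CHR-type letters. The higher genes NDC80, KIF2C and CENPF were among those 27.

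TOP2A (ENSG00000131747, chromosome 17, 40388516 to 40417950, minus strand) had 410, 437, 383 and 434 CPM in the edit-3 libraries, 371, 359, 368 and 339 CPM in the K/VP.5 libraries, and 539, 543, 489.9 and 505 CPM in the K562 libraries. No pair of lines overlapped: every K562 library was above every edit-3 library, and every edit-3 library was above every K/VP.5 library. TOP2A averaged 359 ± 14.5 CPM in K/VP.5 and 519 ± 25.8 CPM in K562 (SD, n = 4). Its log2 fold change was -0.53 (SE 0.065, adjusted p = 1.16e-05 by edgeR's quasi-likelihood test). In edit-3 it averaged 416 ± 25.1 CPM, with a log2 fold change of 0.21 over K/VP.5 (SE 0.065, adjusted p = 0.0267) and of -0.32 over K562 (SE 0.065, adjusted p = 0.00104). The rise in edit-3 over K/VP.5 lost its call in 6 of 8 fits with 1 library left out. Gene counts sum over transcripts, so they do not separate TOP2A RNA that keeps intron 19 from RNA that removes it.

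The fall of TOP2A in K/VP.5 was not shared by the mitotic genes as a group. Their median log2 fold change was -0.02, against 0.003 for all genes tested, and the TOP2A value minus that median was -0.52. Of the 34, 2 genes had a lower log2 fold change than TOP2A, namely CENPE and KIF11, and 32 had a higher one. In edit-3 versus K/VP.5, 31 of the 34 lay below TOP2A and 3 above it. In edit-3 versus K562, 8 lay below TOP2A and 26 above. Summed over the 34 genes, the level was 4247 ± 227 CPM in edit-3, 4357 ± 94.2 CPM in K/VP.5 and 4513 ± 139 CPM in K562.

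Within a library, TOP2A can be read against the median of the 34 genes. On the log2 CPM scale TOP2A exceeded that median by 2.098, 2.361, 2.177 and 2.208 in the edit-3 libraries, by 1.946, 1.852, 1.937 and 1.872 in the K/VP.5 libraries, and by 2.467, 2.545, 2.378 and 2.499 in the K562 libraries. The 3 lines did not overlap in this difference, with K/VP.5 lowest and K562 highest. By contrast, the median over the 34 genes, each set against its own mean over the 12 libraries, overlapped fully between lines, at -0.02 ± 0.079 in edit-3, 0.02 ± 0.066 in K/VP.5 and 0.02 ± 0.061 in K562.

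**Figure D1:**
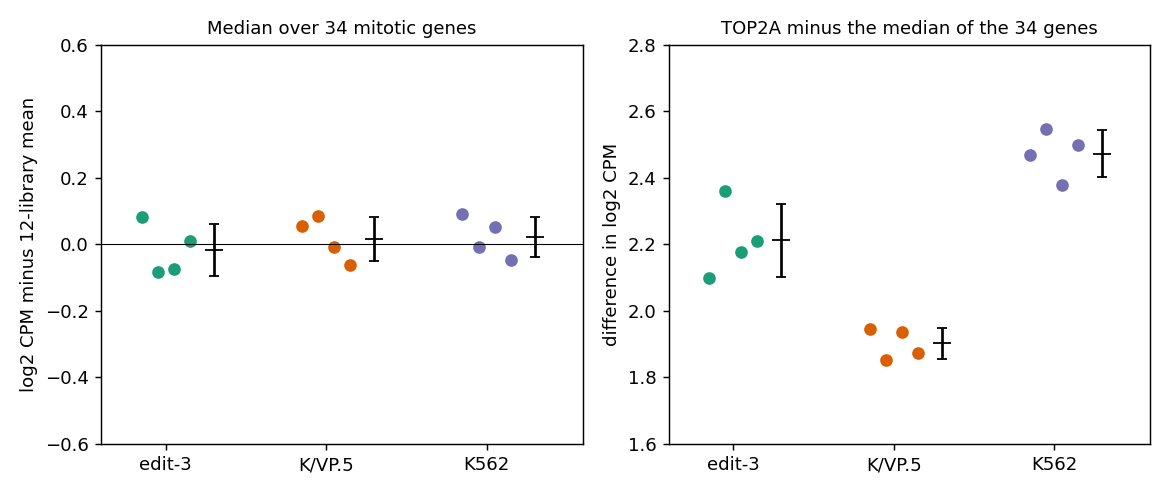
Left, the median over the 34 mitotic genes of log2 CPM minus the gene's mean over 12 libraries; right, TOP2A minus the median log2 CPM of the 34 genes. Dots are libraries (n = 4 per line) and bars are the mean ± SD; the lines overlap on the left, and on the right edit-3 (2.098 to 2.361) lies above K/VP.5 (1.852 to 1.946) and below K562 (2.378 to 2.545).

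The first comparison sets the resistant line K/VP.5 against K562. In K/VP.5, 4 of the 34 mitotic genes were higher, 6 were lower and 24 did not pass the test at an adjusted p under 0.05. That is 29.4% called, against a background of 36.6% of all 18286 genes tested (18.3% higher and 18.3% lower). The genes that rose were HMMR, NDC80, CENPF and KIF2C, and those that fell were CENPE, KIF11, BUB3, MKI67, ANLN and ASPM. Log2 fold changes ran from -0.89 (CENPE) to 0.48 (BUB1), and 16 were above 0 and 18 below. Kinetochore genes and spindle motor genes were found on both sides. This fit did not pair libraries by replicate number. A fit with that number as a block called 13 of the 34, adding CCNB2, BUB1 and ECT2, against 7681 of all 18286 genes.

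**Figure D2:**
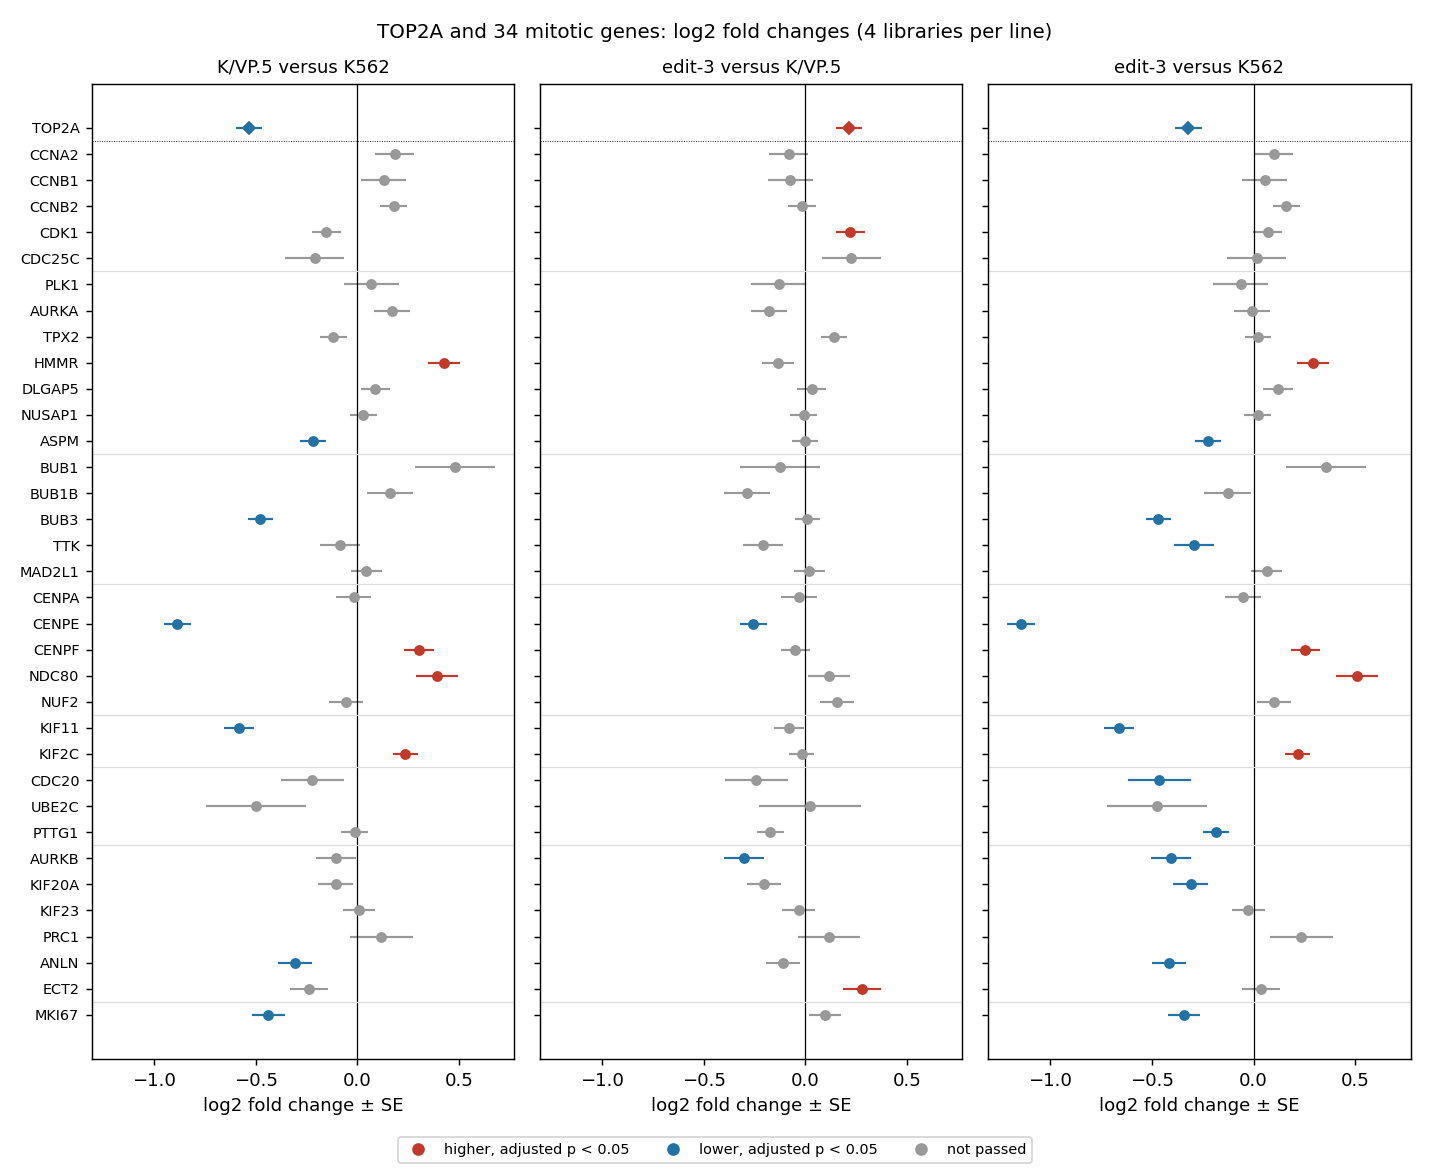
Log2 fold change ± SE of TOP2A (diamonds) and the 34 mitotic genes (dots) in the 3 comparisons, ordered by role from the cyclins at the top to MKI67; red is higher and blue lower at an adjusted p under 0.05, and grey did not pass. In K/VP.5 versus K562 the 34 genes scatter around 0, with 4 red and 6 blue, while TOP2A stands at -0.53.

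The cyclin and Cdk1 group, which drives entry into mitosis, had no called change in K/VP.5 versus K562 among its 5 genes. CCNB1, the cyclin B1 gene, had 263, 203, 213 and 219 CPM in edit-3 libraries, 252, 265, 225 and 203 CPM in K/VP.5 libraries, and 243, 220.2, 224 and 177 CPM in K562. The lines overlapped, and the log2 fold change of K/VP.5 over K562 was 0.13 (SE 0.11, adjusted p = 0.404). CDK1, the kinase that cyclin B activates, had 91.2, 90.1, 87.4 and 93.2 CPM in K/VP.5 libraries, against 105, 97.9, 98.4 and 101 CPM in K562. All K/VP.5 libraries lay below all K562 libraries, yet the log2 fold change of -0.15 did not pass (SE 0.071, adjusted p = 0.11). CCNA2, which encodes cyclin A2, was at 0.18 on the log2 fold change scale, CCNB2, the cyclin B2 gene, at 0.18 (adjusted p = 0.0552), and CDC25C, a phosphatase that activates Cdk1, at -0.21. With the replicate number as a block, CCNB2 passed (log2 fold change 0.18, adjusted p = 0.0464).

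Of the 7 kinase and spindle assembly genes, 1 rose, 1 fell and 5 did not pass. HMMR, whose product binds spindle microtubules, had 94.1, 108, 86.4 and 99.5 CPM in edit-3 libraries, 111, 100.4, 109 and 106 CPM in K/VP.5 libraries, and 84.6, 73.1, 75.6 and 83.7 CPM in K562. The K562 libraries were the lowest and did not overlap with the others. K/VP.5 exceeded K562, with a log2 fold change of 0.43 (with SE 0.080, adjusted p = 0.000604). ASPM, a spindle pole protein gene, fell by 0.22 on the log2 scale (258 ± 10.2 CPM in K/VP.5, 300.5 ± 13.7 CPM in K562, adjusted p = 0.0136). It lost its call without K/VP.5 replicate 2 (adjusted p = 0.0523) and with no filter (adjusted p = 0.0842).

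PLK1, the Polo-like kinase of mitotic entry and spindle assembly, had 241, 168, 209.8 and 205 CPM in edit-3 libraries, 241, 257, 231 and 174 CPM in K/VP.5 libraries, and 235, 208, 243 and 175 CPM in K562. The 3 lines overlapped broadly, and the log2 fold change of K/VP.5 over K562 was 0.07 (SE 0.14, adjusted p = 0.738). The other genes of the group did not pass: AURKA, the Aurora A kinase, was at 0.17, its activator TPX2 at -0.12, the microtubule-binding DLGAP5 at 0.09 and NUSAP1 at 0.03 on the log2 fold change scale.

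Of the 5 spindle checkpoint genes, which delay anaphase until chromosomes are attached, 1 fell and 4 did not pass. BUB3, whose product brings BUB1 and BUBR1 to kinetochores, had 189.5, 184, 170.2 and 165 CPM in edit-3 libraries, 177, 182, 171 and 175 CPM in K/VP.5 libraries, and 246, 249.8, 247 and 239 CPM in K562. Every K562 library was above all the others. The log2 fold change of K/VP.5 over K562 was -0.48 (SE 0.062, adjusted p = 2.25e-05). BUB1, the kinase partner of BUB3, averaged 326 ± 60.2 CPM in K/VP.5 and 233.5 ± 31 CPM in K562. Its log2 fold change of 0.48 did not pass (SE 0.20, adjusted p = 0.0788). BUB1 passed with the replicate number as a block (0.47, adjusted p = 0.0141) and with only the 2 lines compared. BUB1B, which encodes BUBR1, was at 0.16, the checkpoint kinase gene TTK at -0.08 and MAD2L1, the gene of the anaphase inhibitor MAD2, at 0.04.

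The 5 centromere and kinetochore genes moved in both directions: 2 rose, 1 fell and 2 did not pass. CENPE, a kinesin that carries chromosomes to the spindle equator, had 91.3, 92.8, 82.6 and 92 CPM in edit-3 libraries, 116, 105, 103 and 104 CPM in K/VP.5 libraries, and 208, 202, 194 and 188 CPM in K562. No pair of lines overlapped, and edit-3 was the lowest. The log2 fold change of K/VP.5 over K562 was -0.89 (SE 0.067, adjusted p = 9.31e-08). NDC80, a subunit of the complex that grips microtubules, had 62.9, 78.8, 54.1 and 59.1 CPM in edit-3 libraries, 59.3, 58.7, 63.1 and 54 CPM in K/VP.5 libraries, and 47.7, 45.6, 42.2 and 43.6 CPM in K562. All K562 libraries were below the others, and K/VP.5 exceeded K562 at a log2 fold change of 0.39 (with SE 0.10, adjusted p = 0.00737).

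CENPF, a kinetochore protein of late G2 and mitosis, had 269.5, 315, 278 and 315 CPM in edit-3 libraries, 309, 277, 324 and 309.6 CPM in K/VP.5 libraries, and 249, 244, 236.5 and 259 CPM in K562. The K562 libraries again lay lowest, and the log2 fold change of K/VP.5 over K562 was 0.30 (SE 0.073, adjusted p = 0.00418). NUF2, the partner of NDC80 in the same complex, did not pass, at -0.06 (adjusted p = 0.659). CENPA, the histone variant that marks centromeres, was at -0.02.

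The 2 spindle motor genes moved apart. KIF11, the kinesin that pushes spindle poles apart, had 99.3, 96.3, 85.2 and 92.5 CPM in edit-3 libraries, 99.8, 105, 98.6 and 91.8 CPM in K/VP.5 libraries, and 161, 145, 146.5 and 138.5 CPM in K562. Its libraries in edit-3 and K/VP.5 overlapped and stood below all K562 libraries, with a log2 fold change of K/VP.5 over K562 of -0.58 (SE 0.073, adjusted p = 1.55e-05). KIF2C, a kinesin that dismantles microtubule ends, had 199.9, 189.7, 196 and 205 CPM in edit-3 libraries, 197, 217, 196 and 192 CPM in K/VP.5 libraries, and 169, 173, 163 and 175 CPM in K562. Here K562 was the lowest line without overlap, and K/VP.5 exceeded it at a log2 fold change of 0.24 (with SE 0.062, adjusted p = 0.00725).

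None of the 3 anaphase genes passed in K/VP.5 versus K562. CDC20, which activates the anaphase-promoting complex, had 119, 73, 106 and 109 CPM in edit-3 libraries, 136, 135, 115 and 95.7 CPM in K/VP.5 libraries, and 149, 149, 151 and 111 CPM in K562. The lines overlapped through K562 replicate 4, and the log2 fold change was -0.22 (SE 0.16, adjusted p = 0.298). PTTG1, the gene of the separase inhibitor securin, was at -0.01. UBE2C, the ubiquitin-conjugating enzyme of that complex, had only 14 to 31 reads in any library and a log2 fold change of -0.50 (adjusted p = 0.132).

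Of the 6 chromosomal passenger and cytokinesis genes, 1 fell and 5 did not pass. ANLN, which encodes the cleavage furrow scaffold anillin, averaged 60.6 ± 2.56 CPM in K/VP.5 and 74.9 ± 6.51 CPM in K562 without overlap (log2 fold change -0.31, adjusted p = 0.00947). AURKB, the Aurora B kinase of the passenger complex, had 29, 28.7, 33.1 and 23.4 CPM in edit-3 libraries, 38.4, 36.1, 34.5 and 32 CPM in K/VP.5 libraries, and 36.7, 37.7, 40.8 and 36.3 CPM in K562. K/VP.5 and K562 overlapped, and their log2 fold change of -0.10 did not pass (SE 0.098, adjusted p = 0.449). ECT2, which activates RhoA at the cleavage furrow, had 80.3, 72, 65.7 and 66.1 CPM in edit-3 libraries, 59.6, 62.7, 59.6 and 52.6 CPM in K/VP.5 libraries, and 77.8, 65.2, 72.3 and 61.3 CPM in K562. It overlapped between K/VP.5 and K562, at a log2 fold change of -0.24 (adjusted p = 0.0583), and passed with the replicate block (adjusted p = 0.017). The central spindle kinesins KIF20A and KIF23 were at -0.11 and 0.01, and the microtubule crosslinker gene PRC1 at 0.12.

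MKI67, whose product Ki-67 coats mitotic chromosomes and is the usual marker of dividing cells, had 393, 352, 404 and 464 CPM in edit-3 libraries, 389, 364, 352 and 405 CPM in K/VP.5 libraries, and 515, 519, 491 and 522 CPM in K562. All K562 libraries were higher than the others, while edit-3 and K/VP.5 overlapped. The log2 fold change of K/VP.5 over K562 was -0.44 (SE 0.080, adjusted p = 0.000486). MKI67 and TOP2A thus both fell in K/VP.5, while CCNA2, CCNB1 and PLK1 did not pass with or without the replicate block. CCNB2, which did not pass in the main fit, passed with the block (adjusted p = 0.0464). It also passed with only the 2 lines compared and with library totals only.

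**Figure D3:**
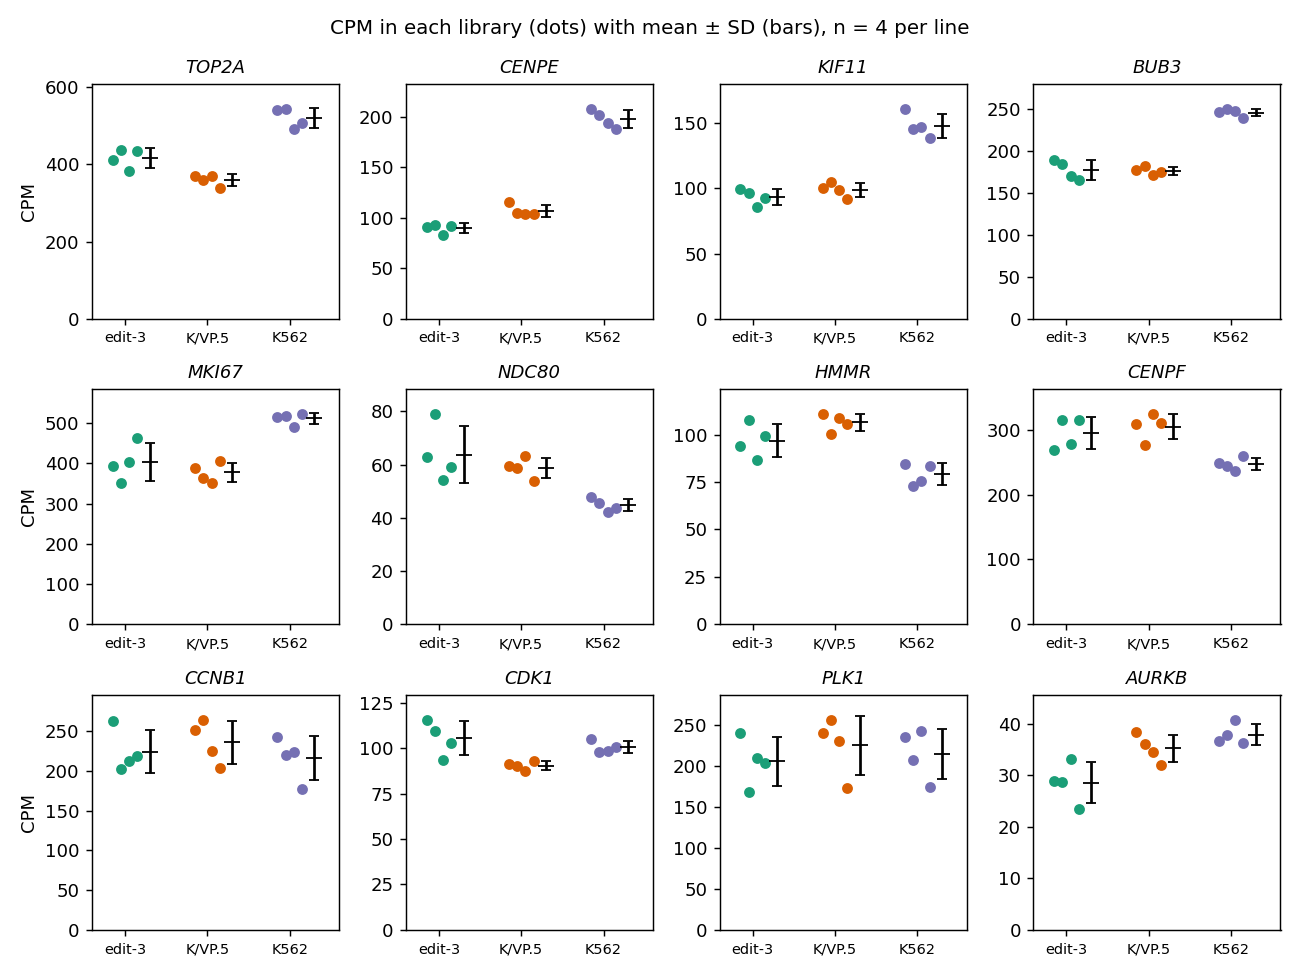
CPM of TOP2A and 11 mitotic genes in each library (dots) with the mean ± SD (bars), n = 4 per line, on axes that start at 0. CENPE, KIF11, BUB3 and MKI67 are highest in K562, NDC80, HMMR and CENPF are lowest there, and CCNB1 and PLK1 overlap between all 3 lines.

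The second comparison sets the edited clone against the line it came from, K/VP.5. Few mitotic genes changed: 2 were higher (CDK1 and ECT2), 2 were lower (CENPE and AURKB) and 30 did not pass. That is 11.8% called, against 23.6% of all genes tested (12.9% higher and 10.6% lower). The median log2 fold change of the 34 genes was -0.03, against 0.004 for all genes, and TOP2A stood at 0.21. Only CENPE kept its call in all 8 fits with 1 library left out.

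CDK1 had 116, 109.6, 93.8 and 103 CPM in edit-3, all above the K/VP.5 values of 87.4 to 93.2 CPM, and the log2 fold change was 0.22 (SE 0.071, adjusted p = 0.0348). That call was lost in 7 of 8 such fits. ECT2 in edit-3 also lay above every K/VP.5 library, with 0.28 as its log2 fold change (SE 0.093, adjusted p = 0.0435). This call, too, was lost in 7 of 8. CENPE was lower again in edit-3, with a mean of 89.7 ± 4.77 CPM, against 107 ± 5.92 CPM in K/VP.5 (log2 fold change -0.26, SE 0.067, adjusted p = 0.0116). AURKB averaged 28.5 ± 3.98 CPM in edit-3, against 35.2 ± 2.66 CPM in K/VP.5, with 1 edit-3 library inside the K/VP.5 range (log2 fold change -0.30, SE 0.099, adjusted p = 0.0373), and lost its call in 6 of 8.

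The cyclin genes did not pass in edit-3 versus K/VP.5, with log2 fold changes of -0.08 for CCNA2, -0.07 for CCNB1 and -0.02 for CCNB2, and CDC25C was at 0.23. Among the kinase and spindle genes, PLK1 was at -0.13, AURKA at -0.18, TPX2 at 0.14, HMMR at -0.14, DLGAP5 at 0.03, NUSAP1 at -0.01 and ASPM at -0.004. The checkpoint genes BUB1, BUB1B and TTK were at -0.12, -0.29 and -0.21, and BUB3 and MAD2L1 at 0.01 and 0.02. BUB1B passed with the replicate number as a block (-0.30, adjusted p = 0.0212).

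In the same comparison the kinetochore genes CENPA and CENPF were at -0.03 and -0.05, NDC80 at 0.12 and NUF2 at 0.16, and the motors KIF11 and KIF2C at -0.08 and -0.02. CDC20 was at -0.24, PTTG1 at -0.17 and UBE2C at 0.02. KIF20A stood at -0.20, ANLN at -0.11, KIF23 at -0.03, PRC1 at 0.12 and MKI67 at 0.10. PTTG1 was lower in every edit-3 library than in any K/VP.5 library and still did not pass (adjusted p = 0.0714).

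Edit-3 was also compared with K562, the parental line. In edit-3, 4 mitotic genes were higher, 11 were lower and 19 did not pass, or 44.1% called against 39.2% of all genes tested (20.6% higher and 18.6% lower). Every role except the cyclins and Cdk1 held at least 1 of the lower genes. The median was 0.005, the same as the 0.005 of all genes. This comparison uses the same K562 libraries as the first and the same edit-3 libraries as the second, so its values are given beside theirs and are not a separate line of evidence.

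NDC80 was 0.51 higher in edit-3 than in K562 on the log2 scale (SE 0.10, adjusted p = 0.00103), beside 0.39 in K/VP.5. HMMR was at 0.29 (adjusted p = 0.00891), beside 0.43. CENPF stood at 0.26 (adjusted p = 0.0118) and KIF2C at 0.22 (adjusted p = 0.0114), beside 0.30 and 0.24 in K/VP.5. Without edit-3 replicate 4, CENPF and KIF2C lost their calls, which left 2 genes higher.

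CENPE had the lowest fold change, at -1.14 (SE 0.068, adjusted p = 5.21e-09), with 89.7 ± 4.77 CPM in edit-3 and 198 ± 8.65 CPM in K562. KIF11 was at -0.66 (adjusted p = 3.66e-06), BUB3 at -0.47 (adjusted p = 2.38e-05), ANLN at -0.42 (adjusted p = 0.000983) and MKI67 at -0.34 (adjusted p = 0.00298). AURKB was at -0.41 (adjusted p = 0.00402), KIF20A at -0.31 (adjusted p = 0.00874) and ASPM at -0.22 (adjusted p = 0.0115). These 8 genes kept their calls in every fit with 1 library left out. CDC20 was at -0.46 (adjusted p = 0.0294), TTK at -0.29 (adjusted p = 0.0288) and PTTG1 at -0.19 (adjusted p = 0.0356), and these lost their calls in 5, 4 and 4 of the 8 fits.

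The 19 genes that did not pass in edit-3 versus K562 included every cyclin and Cdk1 gene, with CCNA2 at 0.10, CCNB1 at 0.06, CCNB2 at 0.16, CDK1 at 0.07 and CDC25C at 0.02. PLK1 was at -0.06, AURKA at -0.01, TPX2 and NUSAP1 at 0.02 and DLGAP5 at 0.12. BUB1 stood at 0.36, BUB1B at -0.13, MAD2L1 at 0.06, CENPA at -0.05 and NUF2 at 0.10. UBE2C was at -0.48, KIF23 at -0.03, PRC1 at 0.23 and ECT2 at 0.04.

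Levels can be compared between genes only per length, so CPM were divided by the kilobases of annotated exon. On that scale TPX2 had the highest mean of the 34, at 102 ± 4.46 in edit-3, 92.4 ± 5.8 in K/VP.5 and 100.3 ± 4.3 in K562. In K/VP.5 it was level with CCNB1 (92.4 ± 10.7). TOP2A stood at 64.6 ± 3.9 in edit-3, 55.8 ± 2.25 in K/VP.5 and 80.7 ± 4.02 in K562, above 96.4% of the genes tested in edit-3, 95.5% in K/VP.5 and 97.1% in K562. In K562, TPX2 and CCNB1 were the mitotic genes above it, and CCNA2 (74.7 ± 8.77) and CDC20 (68.8 ± 9.54) came next. From CCNB1 (84.5 ± 10.8) down to CDC20, each of these neighbours overlapped the next in its mean ± SD. At the low end, UBE2C stood at 0.569 ± 0.12 in edit-3, 0.562 ± 0.19 in K/VP.5 and 0.793 ± 0.03 in K562. PRC1 was at 0.512 ± 0.074 in edit-3, 0.473 ± 0.043 in K/VP.5 and 0.436 ± 0.048 in K562.

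UBE2C and PRC1 stood far below the other 32 genes, with 14 to 31 and 61 to 101 reads per library. In GENCODE release 29, PRC1 shares 3181 of its 5525 exonic bases with AC068831.7, a gene on the same strand. The table also lists processed pseudogenes of UBE2C. How reads with several matches or in overlapping genes were counted is not stated in any source at hand, so the levels of these genes are uncertain. Shorter exonic overlaps exist for other members, such as 254 bases of CCNA2 with EXOSC9 and 457 bases of BUB1B with BUB1B-PAK6.

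Libraries of a line differed together in many of the genes. In edit-3 replicate 1, 26 of the 34 genes were above their edit-3 mean, and in edit-3 replicate 3, 9 were. Among K/VP.5 libraries the number ran from 8 in replicate 4 to 27 in replicate 1, and among K562 libraries from 13 in replicate 4 to 26 in replicate 1. Replicate 1 thus had the most such genes in every line. Replicate 4 had the fewest in K/VP.5 and K562, but not in edit-3, where it had 21. The main fit did not use replicate numbers. Averaged over lines, the coefficient of variation was lowest for BUB3 (3.67%) and KIF2C (3.98%) and highest for BUB1 (20.7%), UBE2C (19.9%) and CDC20 (16.5%).

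Genes that lay near several of the mitotic genes on the chromosome moved with them. Each gene was set beside the median of its 20 nearest tested genes, 10 on each side. In K/VP.5 versus K562 that neighbour median was -0.49 for KIF11, -0.37 for BUB3 and -0.63 for MKI67, which all lie on the long arm of chromosome 10. For each of these 3 genes 18 of the 20 neighbours had a log2 fold change below 0. From KIF11 to the end of chromosome 10, 156 of 243 other tested genes were lower in K/VP.5, 18 were higher, and the median was -0.55. In edit-3 versus K562 the same stretch had 152 lower and 23 higher genes (median -0.57), and in edit-3 versus K/VP.5 it had 15 lower and 25 higher (median -0.01). What sets the level of this stretch was not tested.

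CENPE, on chromosome 4, had a log2 fold change of -0.89 in K/VP.5 versus K562, and its neighbours had a median of -0.30, with 18 of 20 below 0. The CENPE value minus that median was -0.59. NDC80, on chromosome 18, rose by 0.39 where its neighbours had a median of 0.21. The other risers, HMMR, CENPF and KIF2C, had neighbour medians of 0.07, 0.10 and -0.03, and ANLN and ASPM, which fell, had neighbour medians of 0.02 and 0.11. ECT2, on chromosome 3, had a neighbour median of -0.60 in K/VP.5 versus K562 and 0.52 in edit-3 versus K/VP.5.

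The neighbours of TOP2A had a median of -0.08 in K/VP.5 versus K562, and 13 of 20 were below 0, while TOP2A stood at -0.53. In edit-3 versus K/VP.5 the neighbours had a median of 0.21, equal to the 0.21 of TOP2A, with 14 of 20 above 0 and 7 called higher. In edit-3 versus K562 they had a median of 0.23 and TOP2A was at -0.32. Across the 34 mitotic genes, the log2 fold change correlated with the neighbour median at r = 0.59 (rho 0.48) in K/VP.5 versus K562, 0.29 (rho 0.17) in edit-3 versus K/VP.5 and 0.58 (rho 0.48) in edit-3 versus K562. These describe genes of the same libraries, some of which share neighbours, and genes are not replicates.

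**Figure D4:**
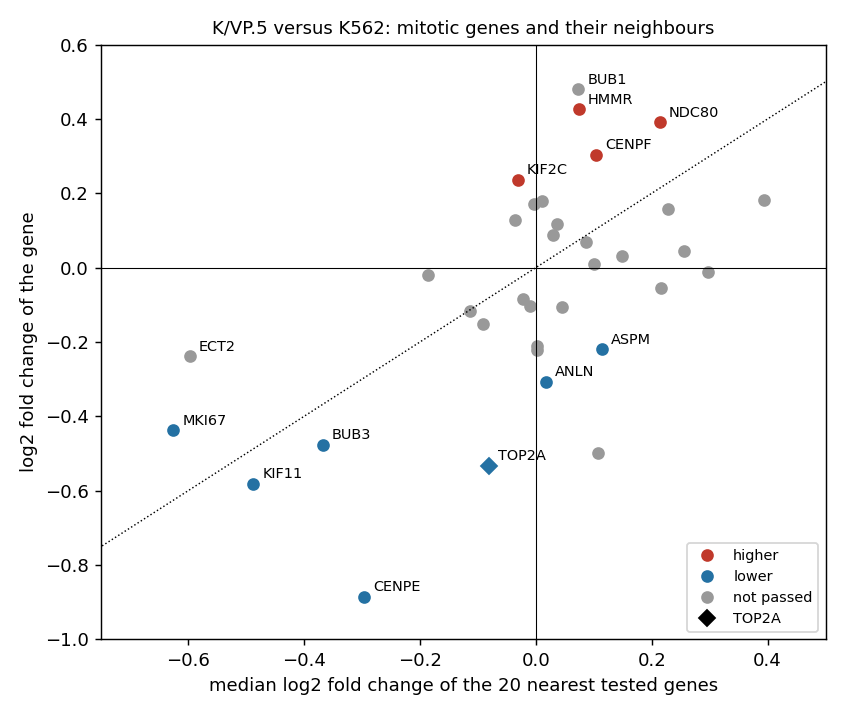
Log2 fold change of each mitotic gene (dots) and TOP2A (diamond) in K/VP.5 versus K562 against the median log2 fold change of its 20 nearest tested genes; the dotted line marks equal values, and red is higher, blue lower and grey not passed. KIF11, BUB3 and MKI67 lie near the line at -0.37 to -0.63. CENPE and TOP2A lie below it, as do other genes such as UBE2C, which has few reads, ASPM and ANLN.

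Other genes of division were read from 8 further lists. Neighbour medians were taken for the mitotic genes and TOP2A alone, so shifts shared with nearby genes were not examined for these lists. In K/VP.5 versus K562 the medians of 7 of these lay between 0.004 and 0.056 on the log2 fold change scale, and that of the Cdk inhibitor and quiescence list at -0.07. Among 19 regulators of mitotic transcription, 2 were higher, 2 were lower and 15 did not pass, or 21.1% called against 36.6% of all genes tested. TFDP1, a partner of E2F, rose (0.40, adjusted p = 0.00684), and TFDP2, another such partner (-0.42, adjusted p = 6.02e-05), and the pocket protein gene RBL2 fell (-0.53, adjusted p = 0.00345). FOXM1 and MYBL2, the activators named above, stood at 0.05 and 0.09 and did not pass (adjusted p = 0.769 and 0.434); they were picked for that role and not by the naming rule.

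Of 34 other kinetochore, centromere and passenger genes tested, 7 were higher and 2 lower in K/VP.5 versus K562, or 26.5% against 36.6% of all genes. SKA3, of the complex that holds kinetochores to microtubules, was at 0.62 (adjusted p = 0.00715), the checkpoint gene MAD1L1 at 0.46 (adjusted p = 0.000441), and SPC24, a subunit of the NDC80 complex, at -0.44 (adjusted p = 4.8e-05). SPC24 and NDC80 belong to 1 complex and moved in opposite directions.

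Of 18 condensin, cohesin and separase genes, 5 were higher and 7 lower, or 66.7% against 36.6% of all genes. PDS5A, a cohesin regulator, averaged 273 ± 20.7 CPM in K/VP.5 and 432 ± 47.4 CPM in K562 (-0.66, adjusted p = 2.42e-05). WAPL, which releases cohesin, was at -0.55 (adjusted p = 9.11e-05), and NCAPD3, a condensin II subunit, at 0.65 (adjusted p = 3.74e-05).

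Among 24 other mitotic kinases and entry or exit regulators, 6 were higher and 6 lower in K/VP.5 versus K562, or 50% against 36.6% of all genes. WEE1, the kinase that holds Cdk1 inactive, averaged 60.7 ± 4.22 CPM in K/VP.5 and 115 ± 5.46 CPM in K562 (-0.92, adjusted p = 1.29e-07). MELK, a kinase expressed in dividing cells, was at 0.69 (adjusted p = 8.13e-06) and STK10, which can phosphorylate PLK1, at 0.67 (adjusted p = 0.000438). Of 32 other motor, spindle and cytokinesis genes, 5 were higher and 7 lower, or 37.5%, near the share of all genes. The lowest were the spindle protein gene FAM83D at -0.86 (adjusted p = 0.000118), the spindle pole gene NUMA1 at -0.86 (adjusted p = 1.49e-07) and TACC3, an Aurora A substrate on spindle fibres, at -0.69 (adjusted p = 7.27e-05).

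The anaphase-promoting complex list had 3 higher and 4 lower of 19, or 36.8% against 36.6% of all genes, with CDC14A at 0.55 (adjusted p = 0.000848), CDC16 at 0.50 (adjusted p = 0.000152) and ANAPC15 at -0.43 (adjusted p = 0.0258, a call lost in 4 of 8 fits with 1 library left out). The G1/S list, of genes that act before mitosis, had 6 higher and 4 lower of 24, or 41.7%. The replication gene GINS2 was at 0.73 (adjusted p = 3.15e-05), the ribonucleotide reductase gene RRM1 at -0.70 (adjusted p = 5.52e-07) and the histone mRNA-binding gene SLBP at -0.55 (adjusted p = 0.00527). In the Cdk inhibitor and quiescence list 2 of 11 tested genes were higher (18.2%), CDKN1B at 0.46 (adjusted p = 0.0102) and CDKN2C at 0.45 (adjusted p = 0.000955).

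In edit-3 versus K/VP.5 the other lists held between 3 and 6 calls each, against 23.6% of all genes called. The share was 27.3% in the Cdk inhibitor and quiescence list, 26.3% in the anaphase-promoting complex list, 25% among the other mitotic kinases and 8.82% to 16.7% in the other 5 lists. The Cdk inhibitor and quiescence list had the highest median, at 0.48 over 11 tested genes, against a median of 0.004 for all genes. Of the 11, 3 were higher, 0 lower and 8 did not pass, and 4 had a log2 fold change below 0. That median is the value of a gene that did not pass (SE 0.22, adjusted p = 0.136). CDKN1A, the gene of the inhibitor p21, had 12.6, 19.7, 31.3 and 26.2 CPM in edit-3 libraries, 1.73, 2.27, 2.91 and 5.01 CPM in K/VP.5 libraries, and 0.884, 1.87, 0.922 and 12.1 CPM in K562. Every edit-3 library was above every other library, and K562 replicate 4 stood apart from the other K562 libraries. The log2 fold change of edit-3 over K/VP.5 was 2.90 (SE 0.80, adjusted p = 0.0237), a call lost in 5 of 8 fits with 1 library left out. KLF6, a transcription factor that can induce p21, was at 1.52 (adjusted p = 0.00489) and CDKN2D, a Cdk4 and Cdk6 inhibitor gene, at 1.03 (adjusted p = 0.00149).

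The remaining lists had medians from -0.09 to 0.06 in edit-3 versus K/VP.5. The anaphase-promoting complex subunit gene ANAPC4 had the lowest value, with 22.9 ± 0.859 CPM in edit-3, against 37.6 ± 1.56 CPM in K/VP.5 (-0.72, adjusted p = 3.12e-05), and CDC14A was at -0.42 and CDC14B at 0.36. Of the cohesin and condensin genes, PDS5A fell (-0.55), and the condensin genes SMC4 (0.41) and NCAPG2 (0.34) rose. SPC24 rose (0.44), while SGO1, which protects centromeric cohesin, fell (-0.40). CCNF and the Cdk1-inhibiting kinase gene PKMYT1 rose (0.53 and 0.51), and STK10 fell (-0.61). FAM83D, TACC3 and CEP55 were at -0.54, -0.45 and 0.36. RB1, the retinoblastoma gene, rose (0.51), the NF-Y subunit gene NFYA fell (-0.49) and TFDP2 was at -0.19. In the G1/S list GINS2 was at -0.40, MCM10 at -0.37 and TYMS at 0.22. The adjusted p of these genes lay between 3.12e-05 and 0.0383, and TYMS, TFDP2, MCM10 and CEP55 each lost the call in at least 1 fit with a library left out.

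In edit-3 versus K562, which reuses these libraries, 8 lists had medians from -0.08 to 0.25. FAM83D (-1.41), PDS5A (-1.21), TACC3 (-1.14), ANAPC4 (-1.05), SLBP (-0.84) and NUMA1 (-0.81) were the lowest of the genes named by the rule. CDC16 (0.84), MELK (0.75), TYMS (0.67), RB1 (0.65) and SKA3 (0.44) were higher, the last without its call in several fits with 1 library left out. NFYA (-0.68), WEE1 (-0.68), NCAPG (-0.65), CKS2 (-0.61), WAPL (-0.61), TFDP2 (-0.61), RRM1 (-0.59), SGO1 (-0.58) and ANAPC15 (-0.55) fell as well. CDKN1A was at 2.53 (adjusted p = 0.0263), and at 4.18 without K562 replicate 4, while KLF6 was at 1.17 and CDKN2D at 1.13. The adjusted p of these genes lay between 4.39e-08 and 0.0417.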

How the data were processed

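RNA of edit-3, K/VP.5 and K562 cells was sequenced in 12 libraries, 4 per line, and libraries were assigned by source name. The table the authors deposited holds whole-number read counts for each gene, without normalization. GRCh38, HISAT2 2.1.0, featureCounts and Subread 1.5.1 are named in the submitters' processing notes. Not given in the sources used here are the annotation release, the strand setting and the handling of multiply matching reads, so reads of a gene and its antisense partner cannot be told apart.

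The analysis used edgeR 4.0.16 and limma 3.58.1 under R 4.3.3. Genes were filtered by filterByExpr, which left 18286 genes holding 99.89% of reads. Library sizes were scaled by TMM. A robust quasi-likelihood model with 1 coefficient per line was fitted to all 12 libraries, with Benjamini-Hochberg adjustment over all genes tested. A gene was called at an adjusted p under 0.05. The SE is the size of the log2 fold change divided by the square root of F. CPM are the deposited counts divided by the TMM-scaled library size. Gene positions and exon lengths came from GENCODE release 29, which matched 58275 of 58395 gene IDs, and promoters from RefSeq. Model fits were tested on simulated data.

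The 34 genes, the other lists and the tests were chosen with earlier results of these data known. All 34 genes were named; library values were given for TOP2A, for the 4 called genes with the largest fold change in each direction of each comparison, and for MKI67, CCNB1, CDK1, PLK1 and AURKB. From each other list the 3 called genes with the largest absolute fold change per comparison were named, except for 1 gene that is not reported here. Alternatives were other scalings, no filter, DESeq2 1.42.0, the 2 compared lines alone, a replicate block and leaving out each library.

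Pairs of libraries of a line differed beyond sampling noise, with a chi-square per degree of freedom of 6.68 to 67.4 over genes with at least 20 reads, so none was counted as a copy. Titles give the same replicate numbers in each line. K/VP.5 and K562 libraries of the same number deviated together from their line means (correlations of 0.314, 0.154, 0.145 and 0.508). For different numbers the correlations ran from -0.399 to 0.293, the highest for K/VP.5 replicate 1 with K562 replicate 3. The labels state no pairing, so the main fit did not use the numbers, and the replicate block was an alternative. Edit-3 correlations for the same number lay between -0.07 and 0.36 with K/VP.5 and between -0.11 and 0.47 with K562, and its libraries were not taken as paired. The replicate block was fitted to all libraries at once, so it covered edit-3 as well.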

Additional observations from a re-analysis of the deposited data

Results flagged for a closer look

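In 5 of 111 groups of 4 libraries, 1 library stood far from the other 3, with a gap to the nearest library above 0.829 of the whole range; chance flags about 1 in 20. CDC20 stood at 111.1 CPM in K562 replicate 4 and at 149 to 151 CPM in the other K562 libraries. CCNA2 stood at 222.1 CPM in K/VP.5 replicate 4, against 241.5 to 244 CPM in the other 3. CENPE was at 116 CPM in K/VP.5 replicate 1 (others 103 to 105 CPM) and at 82.55 CPM in edit-3 replicate 3 (others 91.3 to 92.8 CPM). KIF20A was at 62.91 CPM in edit-3 replicate 2, against 74 to 76 CPM in the other 3. The CDC20 library is the shallowest, at 25.3 M reads, and the part of depth in its value was not tested.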

How the results depend on the processing

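Of 1428 values of single mitotic genes under the alternatives, 1364 kept their side of the threshold, 48 lost a call, 16 gained one and no called value changed sign. Of those 1364, 1298 kept their sign too, and 66, which did not pass the test in either fit, changed sign or came to 0 at 3 decimals. In edit-3 versus K/VP.5 the count of mitotic genes higher, 2 in the report, was 0 with no filter, 1 with DESeq2, 1 with only the 2 compared lines, and 0 to 2 with 1 library left out; the count lower, also 2, was 1 to 3. TOP2A in that comparison had a log2 fold change of 0.196 with no filter (adjusted p = 0.139), 0.199 with only the 2 lines (adjusted p = 0.0515) and 0.167 to 0.25 with 1 library left out, where 6 of 8 calls were lost. In edit-3 versus K562 the mitotic genes higher, 4 in the report, numbered 2 without edit-3 replicate 4 and 2 to 5 over all libraries left out in turn. The causes were not tested. With the replicate block, 13 mitotic genes were called in K/VP.5 versus K562 against 10, all 10 among them; BUB1B was added in edit-3 versus K/VP.5, and edit-3 versus K562 kept the same 15. Over all genes the block gave 7681, 5494 and 8121 calls in these comparisons. With library totals only, the median of all genes moved by under 0.05 on the log2 scale, and that of the mitotic genes was 0.03 in K/VP.5 versus K562. At this depth, genes such as UBE2C with 14 to 31 reads per library can show only large changes.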
